A study of Mus musculus with 24 samples.

Results

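Kidneys of the D53 line of mice were examined for the gene expression difference that remained between cystic and noncystic animals after removal of the miR-17 binding motif from Pkd1. Pkd1 encodes polycystin-1, and loss of its function in tubule cells gives polycystic kidney disease. All mice carried 1 RC allele of Pkd1, a missense allele with reduced function, and in the D53 line, which descends from founder 2, the motif had been deleted from that RC allele by CRISPR/Cas9. In the noncystic RC/+ D53 mice the second Pkd1 allele was floxed and intact. In the cystic RC/- D53 mice the same floxed allele was recombined by Ksp-Cre, a Cre driven by the promoter of kidney-specific cadherin that acts in tubule epithelium. Because the RC/- mice alone carried Cre, Cre and the cystic genotype cannot be told apart. The members were the 8 libraries of the D53 line among 24 in the series, taken by the numbers that end their sample titles: RC/+ D53 replicates 10 to 12 (3 mice) and RC/- D53 replicates 23 to 27 (5 mice). Each library was made from whole kidney of 1 C57BL/6 mouse (a C57BL/6J background in the study's methods) at 18 days of age. The other 16 libraries were the same pair of genotypes with an intact motif (unedited line, 3 RC/+ and 5 RC/-) and in a further edited line from founder 3 (D18 line, 3 RC/+ and 5 RC/-). Every edited mouse of a line descends from 1 founder.

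MicroRNAs of the miR-17 family pair through their seed, bases 2 to 8, with short matches in the 3′ untranslated region (UTR) of messenger RNAs, which lowers the stability or translation of the target. In kidneys with cysts the tubules widen, the lining cells dedifferentiate, macrophages and fibroblasts collect around them, and transcripts of the proximal tubule decline. The site and the microRNA are shown because the D53 deletion removed this pairing.
mmu-miR-17-5p: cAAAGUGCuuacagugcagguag
Pkd1 3′ UTR, site: acatatggggcttctGCACTTTaaaaaggc
Capitals mark the seed in the microRNA (RefSeq, chromosome 14, 115043684 to 115043706, plus strand, GRCm38.p6) and the bases complementary to it in Pkd1. The 30 bases of Pkd1 lie at chr17:24595717-24595746 on the plus strand of GRCm38, in exon 46 of 46, and the match begins at base 193 of a 3′ UTR of 969 bases. The ends of the D53 deletion were not used here.

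The D53 libraries held 20.4 to 30.8 M counts. Levels are given as CPM, the count of a gene divided by the library's total in M. Differences are log2 ratios of RC/- D53 over RC/+ D53 from the limma-trend model, written with their SE, and p is adjusted by Benjamini-Hochberg over all genes tested. Kidney identity was evident in all 8 libraries: Umod and Slc12a1 of the thick ascending limb, Lrp2 and Slc34a1 of the proximal tubule, and Aqp2 of the collecting duct had their lowest values at 1009, 1409, 867, 2318 and 326 CPM. In a principal component analysis of the D53 line the first component, with 26.9% of the variance, placed the noncystic libraries between -36.4 and -35.9 and the cystic ones at 7.07 to 54.7, where replicate 27 stood apart from the others (7.07 to 21.4). Sex was mixed, with 1 female of 3 in RC/+ D53 and 3 of 5 in RC/- D53.

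All 5 cystic libraries of the D53 line carried skeletal muscle transcripts. The summed level of 83 skeletal muscle genes was 274, 263 and 280.4 CPM in the RC/+ D53 libraries and 508, 569.6, 508, 571 and 574 CPM in the RC/- D53 libraries. The groups did not overlap, and the mean went from 272.5 ± 8.56 to 546 ± 34.9 CPM (SD, n = 3 and 5; exact permutation test, two-sided, p = 0.0357, adjusted p = 0.0625 over 7 such sums). With 56 possible assignments 0.0357 is the smallest p this design allows. The sum of the 9 myogenic identity genes, of which 3 were tested singly, was 0.147 to 0.276 CPM in RC/+ D53. It was 0.325 to 0.697 CPM in RC/- D53, with the same exact p and adjusted p. The unedited RC/- libraries, whose skeletal muscle sums were 203 to 254 CPM, reached 0.299 to 0.840 CPM for the identity genes. In RC/- D18, replicate 18 was at 0.657 CPM and replicate 20, which carried muscle transcripts, at 0.353 CPM. This sum therefore did not separate libraries with and without muscle transcripts. Myh4, the fast 2B myosin heavy chain, was at 0, 0 and 0.0491 CPM in RC/+ D53 and 45.7, 57.4, 49.8, 50.3 and 50.2 CPM in RC/- D53. The RC/+ D53 level of Myh4 rested on 1 count in replicate 12, so no fold is given. Acta1, skeletal muscle alpha-actin, was at 4.58, 5.68 and 5.59 CPM in RC/+ D53 and 39.4, 53.04, 44.8, 44.1 and 44.3 CPM in RC/- D53. The other defining markers followed them: Ckm, muscle creatine kinase, ranged from 0 to 0.0395 CPM in RC/+ D53 and from 7.46 to 11.2 CPM in RC/- D53, Myh1 from 0 to 0.0981 CPM and from 8.37 to 10.8 CPM, and Tnnt3, fast troponin T, from 0.158 to 0.525 CPM and from 21.1 to 29.1 CPM. Mylpf, the fast myosin light chain, ranged from 1.61 to 2.25 CPM and from 7.20 to 9.61 CPM. Other list genes were already present in RC/+ D53, such as Pgam2, a phosphoglycerate mutase (from 58.9 ± 4.12 to 57.6 ± 4.14 CPM), and Fbp2, a fructose bisphosphatase (from 27.5 ± 2.52 to 23.7 ± 1.03 CPM). The same transcripts were high in replicates 20 to 22 of RC/- D18 (534 to 597 CPM) and not in replicates 18 and 19 of that group (263 and 269 CPM), and the plot by library shows this set of 8 consecutive numbers. All RC/- D53 libraries and no RC/+ D53 library belong to it, so the set and the cystic genotype cannot be told apart within the D53 line.

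**Figure D1:**
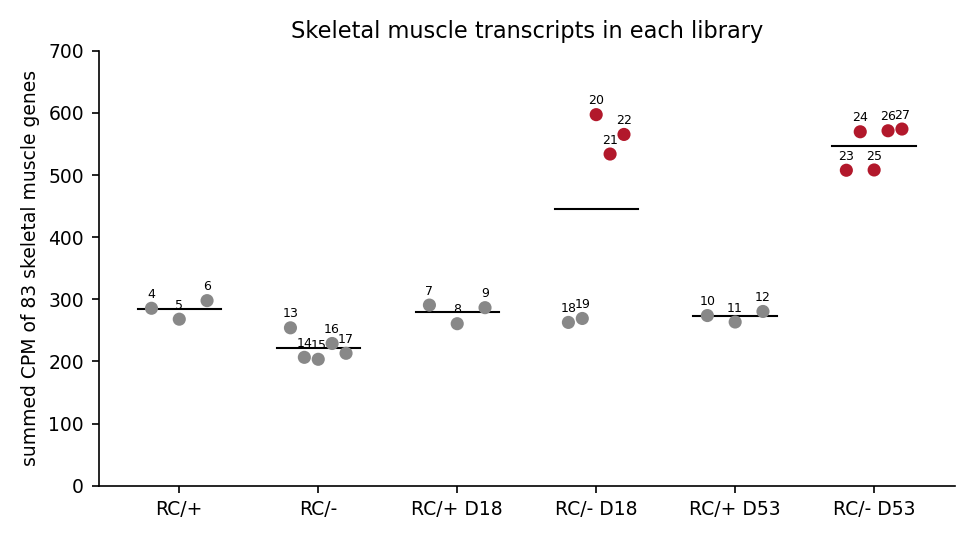
Summed CPM of 83 skeletal muscle genes (y axis) in each of the 24 libraries by group (x axis), with the replicate number above each point, red for libraries 20 to 27, grey for the others, and a line at the group mean. The 5 RC/- D53 libraries lie between 508 and 574 CPM and the 3 RC/+ D53 libraries between 263 and 280.4 CPM.

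To set muscle apart, the comparison was fitted both without and with membership of libraries 20 to 27 as a covariate. The size of that covariate is estimated only from the RC/- D18 group, where 3 libraries belong to the set and 2 do not, so every value with the covariate depends on those 5 libraries of another line. Of 22570 genes tested, 587 differed between RC/- D53 and RC/+ D53 at an adjusted p below 0.05 (2.60% of the genes), with 554 higher in RC/- D53 (2.45%) and 33 lower (0.146%). Genes of the skeletal muscle list made up 36 of the 587, and all 36 were higher. Outside that list 551 genes remained, 518 higher and 33 lower, with median differences of 0.69 and -0.49 against 0.04 over all genes. The 551 are not free of muscle transcripts. They held Mylk4 and Mypn, whose differences of 3.14 and 2.80 became 0.42 and 0.06 with the covariate. The 8 libraries were fully separated for 532 of the 551 (11.6% of all genes were separated in either direction). With the covariate 542 of the 551 kept their direction and 155 also passed the test there, 149 higher and 6 lower (287 genes in all passed in that fit, 1.27%). The covariate moved the median of all genes to 0.13, and that of the 518 higher genes to 0.71. For the 36 muscle genes, 15 changed sign. The number of passing genes fell to 381, 324 and 312 when RC/+ D53 replicate 10, 11 or 12 was left out, and 206 of the 551, all of them higher, passed in each of the 8 fits without 1 library.

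**Figure D2:**
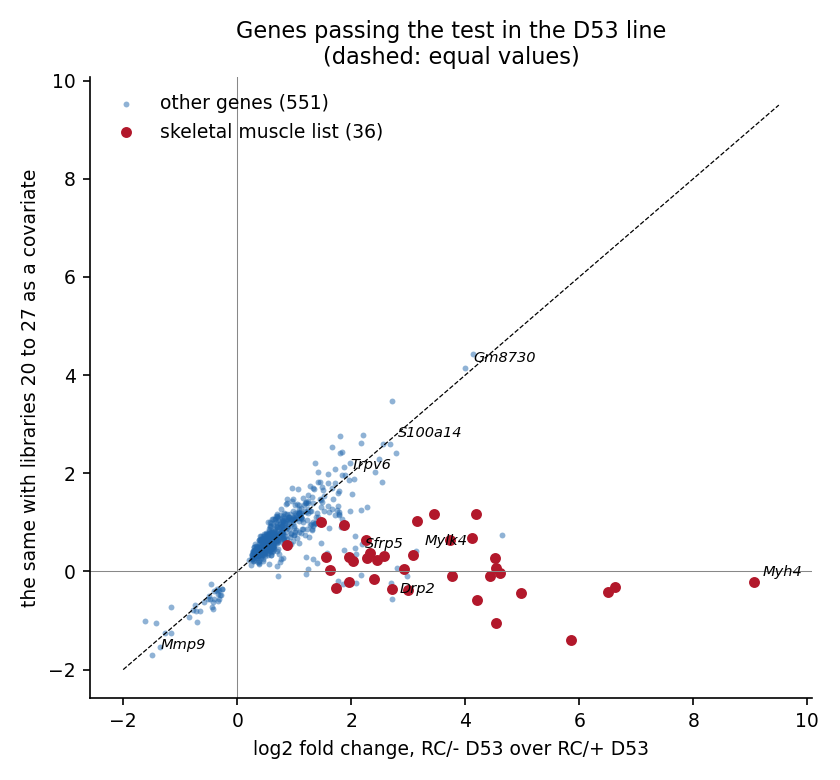
Log2 fold change of RC/- D53 over RC/+ D53 (x axis) and the same value with libraries 20 to 27 as a covariate (y axis) for the 587 genes that passed the test, with the 36 skeletal muscle list genes in red. On the y axis 15 of the 36 muscle genes lie below 0, while 542 of the other 551 keep their direction.

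Among the 518 higher genes the difference was 2 or more for 27, 124 lay between 1 and 2, and 367 below 1, and 487 were protein-coding. Of the 33 lower genes 7 had a difference of -1 or below and none reached -2. Relative to the RC/+ D53 mean, the average log2 difference of the 518 genes was 0.80, 0.95, 0.94, 0.76 and 0.96 in replicates 23 to 27. Replicates 27 and 24 held the highest of the 5 cystic values for 182 and 172 of these genes, and replicate 26 the lowest for 210. In whole tissue, fewer cells of a type and less RNA per cell cannot be told apart.

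Of the tubule segment lists, collecting duct held genes that passed, and proximal tubule and thick ascending limb held none. Of 14 collecting duct genes tested, 7 rose and none fell, with a median difference of 0.79, and 5 of them also passed with the covariate (median 0.73). Gata3 (ENSMUSG00000015619, chromosome 2, 9857078 to 9890034), a transcription factor of the ureteric bud lineage from which collecting ducts form, was at 23.2, 20.2 and 18.8 CPM in the RC/+ D53 libraries and 43.2, 56.4, 49.6, 45.6 and 61.7 CPM in the RC/- D53 libraries. Its difference was 1.30 ± 0.12 (adjusted p 3.13e-07), and the groups did not overlap. Scnn1g (ENSMUSG00000000216, chromosome 7, 121734479 to 121768475), the gamma subunit of the epithelial sodium channel, was at 66.7, 69.5 and 67.5 CPM in the RC/+ D53 libraries and 134, 174, 148, 143 and 138 CPM in the RC/- D53 libraries, a difference of 1.11 ± 0.12 (adjusted p 3.53e-06). All 5 cystic libraries were again above the 3 noncystic ones, with replicate 24 highest. Hsd11b2, which inactivates glucocorticoids in aldosterone-sensitive cells, was at 284, 268 and 216 CPM in RC/+ D53 and 539.6, 676, 584, 567 and 606 CPM in RC/- D53, a difference of 1.22 ± 0.15 (adjusted p 4.64e-05). Fxyd4, a regulator of the sodium pump, went from 57.02 ± 5.16 to 125 ± 19.7 CPM (SD, n = 3 and 5), a difference of 1.12 ± 0.14 (adjusted p 4.92e-05), also without overlap. The other members that passed, named after their values were seen, were Scnn1b and Scnn1a, the remaining subunits of the channel, and Foxi1, a transcription factor of intercalated cells; Scnn1b passed with the covariate as well. The 7 members that did not pass included the water channel gene Aqp2, at 326 to 455 CPM in RC/+ D53 and 495 to 1254 CPM in RC/- D53 (adjusted p 0.185), the water channel genes Aqp3 and Aqp4, with differences of 0.81 and 0.77 (adjusted p 0.0546 and 0.0952), and Slc26a4 and Slc4a1 of intercalated cells, at 0.07 and -0.07. Averaged over the list, the cystic libraries lay 0.53 to 0.99 above the RC/+ D53 mean, with replicate 24 highest.

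A number of surface epithelium genes rose as well. In the list of keratins, S100 proteins and other surface epithelium genes 10 of 19 tested rose and none fell (median difference 0.74), and 5 passed with the covariate (median 0.75). S100a14 (ENSMUSG00000042306, chromosome 3, 90526856 to 90528837), a calcium-binding protein of epithelia, was at 4.02, 4.18 and 5.005 CPM in the RC/+ D53 libraries and 24.9, 27.7, 29.5, 23.2 and 38.7 CPM in the RC/- D53 libraries, with replicate 27 highest and no overlap between the groups. The difference was 2.67 ± 0.25 (adjusted p 5.45e-07) and 2.61 (adjusted p 0.00325) with the covariate. Lgals3, which encodes galectin-3, rose from 60.3 ± 5.42 to 141 ± 18.5 CPM (SD, n = 3 and 5), a difference of 1.22 ± 0.15 (adjusted p 4.71e-05). Sprr2g, a small proline-rich gene of cornified epithelium annotated as a polymorphic pseudogene, rose from 0.148 ± 0.0496 to 1.43 ± 0.353 CPM, a difference of 2.72 ± 0.42 (adjusted p 3.14e-04), and its family has near-identical copies that could share reads. The basal keratins Krt5, Krt14 and Krt15 had differences of -0.11, -0.03 and -0.43 and did not pass. The average log2 difference of the list was 1.33 in replicate 27 and 0.56 to 0.74 in the other 4 cystic libraries.

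Outside the lists, the increases covered varied functions. The genes of this paragraph were picked among those whose groups did not overlap. Trpv6, Fam167a, Slc2a6 and Cfap44 were also picked among those that passed with the covariate. Neither property is therefore a result for them. Trpv6 (ENSMUSG00000029868, chromosome 6, 41620624 to 41636405), an epithelial calcium channel, was at 4.65, 3.71 and 3.29 CPM in the RC/+ D53 libraries and 14.2, 16.3, 14.9, 11.4 and 13.1 CPM in the RC/- D53 libraries, a difference of 1.83 ± 0.19 (adjusted p 2.16e-06). The lowest cystic library had more than the highest noncystic one, and the covariate left 1.97 (adjusted p 0.00317). Fam167a (ENSMUSG00000035095, chromosome 14, 63436394 to 63465498) was at 1.20, 1.03 and 0.883 CPM in the RC/+ D53 libraries and 4.51, 4.19, 3.70, 4.25 and 4.58 CPM in the RC/- D53 libraries, a difference of 1.96 ± 0.16 (adjusted p 1.11e-07). Slc2a6, a member of the facilitative glucose transporter family, was at 0.338, 0.158 and 0.393 CPM in RC/+ D53 and 2.14, 2.24, 1.98, 1.38 and 1.59 CPM in RC/- D53, a difference of 2.41 ± 0.27 (adjusted p 5.98e-06) and 2.02 (adjusted p 0.0219) with the covariate. Cfap44, a component of cilia and flagella, rose from 0.781 ± 0.267 to 3.80 ± 0.672 CPM (SD, n = 3 and 5), a difference of 2.21 ± 0.31 (adjusted p 1.22e-04), and passed with the covariate too. Cyp4f39, a cytochrome P450 gene, rose from 0.469 ± 0.0737 to 3.15 ± 0.628 CPM, a difference of 2.54 ± 0.33 (adjusted p 5.16e-05), and gave 1.82 (adjusted p 0.073) with the covariate. Fcgbp, a mucus protein, was at 1.39, 1.62 and 1.23 CPM in RC/+ D53 and 9.27, 7.57, 6.89, 3.73 and 6.71 CPM in RC/- D53 (2.16 ± 0.55, adjusted p 0.032) and Itgbl1 at 0.413, 0.0789 and 0.736 CPM in RC/+ D53 and 1.59, 1.47, 1.10, 1.35 and 2.53 CPM in RC/- D53 (2.02 ± 0.50, adjusted p 0.0242). Fcgbp passed in 1 and Itgbl1 in 5 of the 8 fits without 1 library, with the highest adjusted p at 0.143 without replicate 12 for Fcgbp and 0.282 without replicate 11 for Itgbl1. Neither passed in edgeR (adjusted p 0.0821 and 0.0547) or with the covariate, which left Fcgbp at 1.26 (adjusted p 0.492) and Itgbl1 at 1.57 (adjusted p 0.337). The antisense gene Gm13398 rose from 0.444 ± 0.174 to 3.01 ± 1.30 CPM, a difference of 2.49 ± 0.40 (adjusted p 4.74e-04), and 2.29 (adjusted p 0.0794) with the covariate.

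A pair of processed pseudogenes had the highest differences among named genes that passed with the covariate. Gm8730 (ENSMUSG00000063696, chromosome 8, 102864845 to 102865798) was at 3.19, 2.29 and 3.44 CPM in the RC/+ D53 libraries and 43.8, 37.8, 45.4, 46.9 and 70.6 CPM in the RC/- D53 libraries, a difference of 3.99 ± 0.16 (adjusted p 2.70e-14) and 4.14 (adjusted p 1.04e-09) with the covariate. Gm14165 (ENSMUSG00000081434, chromosome 2, 152353615 to 152354566) was at 0.375, 0.0395 and 0.344 CPM in the RC/+ D53 libraries and 4.47, 3.87, 4.47, 5.11 and 7.47 CPM in the RC/- D53 libraries, a difference of 4.14 ± 0.32 (adjusted p 3.01e-08). Every cystic library was above every noncystic one for both, and this and passing with the covariate were conditions of the rule that named them. The same pair differed between RC/- and RC/+ in the unedited line (4.66 and 5.33) and in the D18 line (4.15 and 4.28). Processed pseudogenes can share reads with their parent genes, so these values are uncertain. The interaction with the unedited line was -0.67 (adjusted p 0.055) for Gm8730 and -1.19 (adjusted p 0.0922) for Gm14165.

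**Figure D3:**
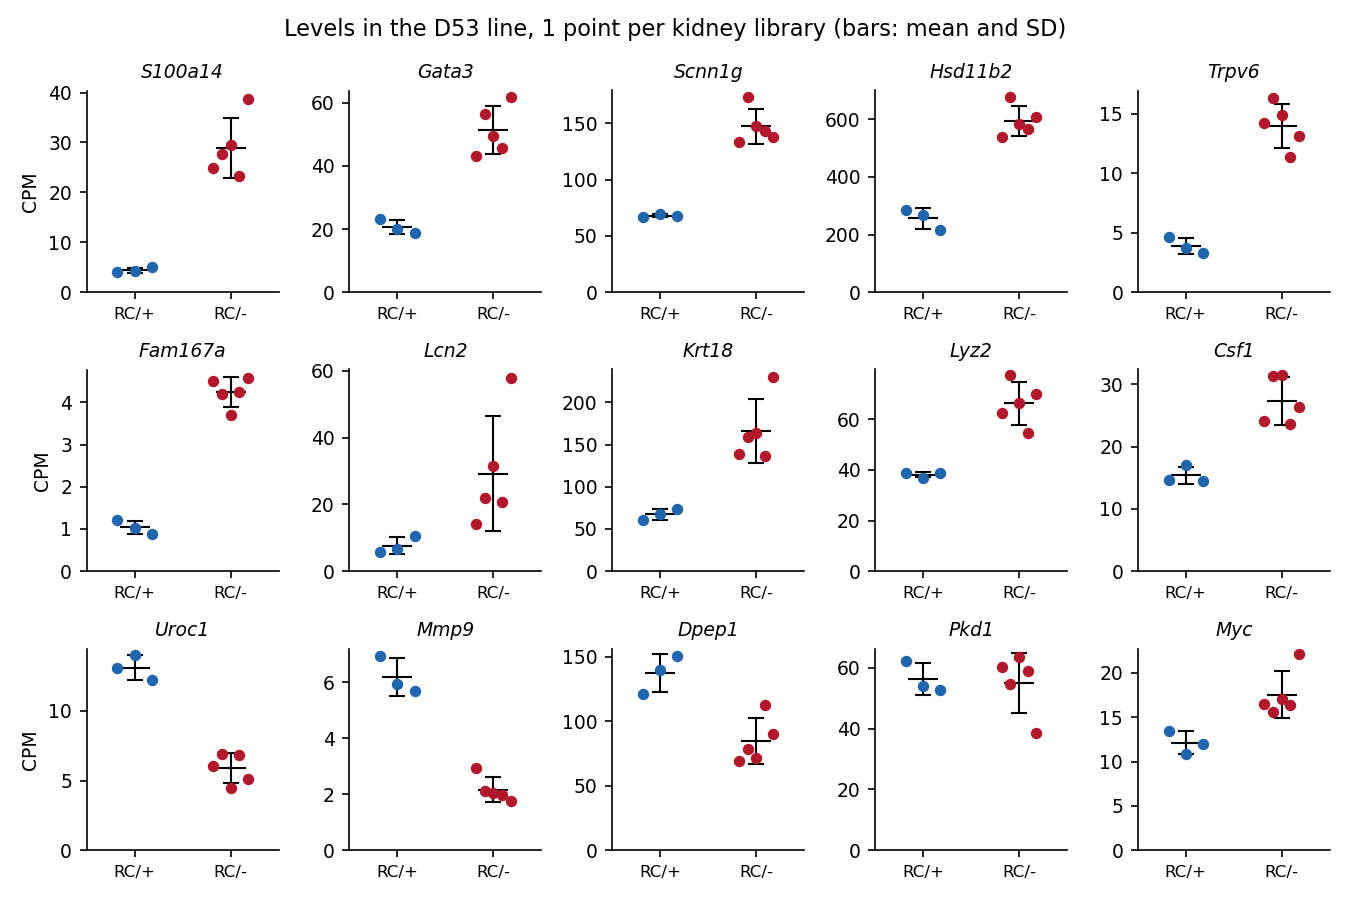
CPM (y axes, from 0) of 15 genes in the 8 libraries of the D53 line, 1 point per library, blue for RC/+ D53 and red for RC/- D53, with bars at the mean and SD. Collecting duct, surface epithelium, injury and macrophage genes lie higher in all 5 RC/- libraries, Uroc1, Mmp9 and Dpep1 lie lower, and Pkd1 overlaps.

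Some tubule injury genes rose. The list had 12 genes tested, of which 4 rose and none fell (median difference 0.64). Lcn2 (ENSMUSG00000026822, chromosome 2, 32384633 to 32388252), which encodes an iron-binding lipocalin released by damaged tubules, was at 5.78, 6.51 and 10.6 CPM in the RC/+ D53 libraries and 14.1, 22.02, 31.4, 20.9 and 57.8 CPM in the RC/- D53 libraries. Its cystic values spread widely, with 57.8 CPM in replicate 27, and did not overlap the noncystic ones. The difference was 1.81 ± 0.39 (adjusted p 0.00867), and the call was lost on leaving out RC/+ D53 replicate 10 (adjusted p 0.0699) and in 1 further fit of the 8. Krt18, a keratin of simple epithelia, was at 60.6, 68.3 and 73.2 CPM in RC/+ D53 and 139, 159, 164, 137 and 231 CPM in RC/- D53, a difference of 1.28 ± 0.16 (adjusted p 2.73e-05). Its partner Krt8 was at 204, 216 and 233 CPM in RC/+ D53 and 289.5, 322, 309.7, 289 and 387 CPM in RC/- D53, a difference of 0.55 ± 0.09 (adjusted p 4.74e-04). Clu, the secreted chaperone clusterin, rose from 231 ± 12.6 to 397 ± 34.4 CPM (SD, n = 3 and 5), a difference of 0.78 ± 0.19 (adjusted p 0.0242). Lcn2, Krt18 and Krt8 passed with the covariate and Clu did not, 0.89 (adjusted p 0.156). Clu passed in 3 of the 8 fits without 1 library (highest adjusted p 0.119 without replicate 11) and missed the threshold in edgeR (adjusted p 0.0546). Havcr1, the proximal tubule injury marker Kim-1, had a difference of 0.73 (adjusted p 0.691) and did not pass. Vcam1 went the other way, at -0.54 (adjusted p 0.488). It was lower in every cystic library than in every noncystic one.

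Macrophage transcripts also rose. Of 15 macrophage genes 8 rose and none fell, and all 15 had a fold change above 0, with a median difference of 0.55. None of the 8 passed with the covariate, although the median stayed at 0.52. Lyz2, lysozyme, was at 38.6, 36.9 and 38.96 CPM in the RC/+ D53 libraries and 62.4, 77.6, 66.5, 54.5 and 70.2 CPM in the RC/- D53 libraries, a difference of 0.78 ± 0.15 (adjusted p 0.00318). Csf1r, the receptor for the macrophage growth factor Csf1, was at 85.8, 95.7 and 102 CPM in RC/+ D53 and 123, 148, 129.7, 114 and 123 CPM in RC/- D53, a difference of 0.43 ± 0.08 (adjusted p 0.00354), and 15.1% of its exon bases are shared with another gene. C1qb and C1qa, chains of complement C1q made by tissue macrophages, differed by 0.71 ± 0.15 (adjusted p 0.00943) and 0.68 ± 0.15 (adjusted p 0.0103). Replicate 24 had the highest value of all 4 genes among the cystic libraries. Without RC/+ D53 replicate 10 the number of macrophage genes that passed was 2, without replicate 11 it was 3, and without RC/- D53 replicate 24 or 25 it was 5.

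Among chemokines and cytokines 5 of 20 genes rose, none fell, and all 20 had a fold change above 0 (median 0.75). Csf1, which sustains macrophages, was at 14.7, 17.01 and 14.5 CPM in the RC/+ D53 libraries and 24.1, 31.4, 31.5, 23.6 and 26.3 CPM in the RC/- D53 libraries, a difference of 0.82 ± 0.13 (adjusted p 3.54e-04) and 1.08 (adjusted p 0.00999) with the covariate. Tgfb2, a transforming growth factor beta, was at 8.56, 8.997 and 7.998 CPM in RC/+ D53 and 19.6, 18.4, 19.9, 16.5 and 18.6 CPM in RC/- D53, a difference of 1.12 ± 0.18 (adjusted p 4.19e-04), and it too passed with the covariate. Lif, an interleukin-6 family cytokine, rose from 0.699 ± 0.119 to 2.40 ± 0.398 CPM (SD, n = 3 and 5), a difference of 1.67 ± 0.34 (adjusted p 0.00526). Ccl12, a monocyte chemokine, rose from 0.559 ± 0.0688 to 1.94 ± 0.689 CPM, a difference of 1.60 ± 0.30 (adjusted p 0.00238). The groups did not overlap for any of these 4. The fifth was Tnfrsf12a, the TWEAK receptor, named after its value was seen, at 0.58 (adjusted p 0.0275). With the covariate 3 of the 5 passed, Lif among them, and Ccl12 and Tnfrsf12a did not (adjusted p 0.0633 and 0.106).

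Further lists also held genes that passed, where 2.60% of all genes tested did. A single call in a list of 12 to 18 genes is not read as a result about that list. In the complement list 3 of 14 rose: C4b, 1.47 (adjusted p 0.0153), C5ar1, the C5a receptor, 0.77 (adjusted p 0.0153), and Cfi, complement factor I, 0.59 (adjusted p 0.0391). None of the 3 passed without RC/+ D53 replicate 10 or 11, and 1 complement gene did in edgeR. With the covariate none passed, and C4b was at 0.58 (adjusted p 0.597). Cfb of the same list went the other way without passing, at -0.90 (adjusted p 0.0919). It was lower in every cystic library than in every noncystic one. Of 15 targets of the transcriptional coactivator Yap 4 rose, led by F3, tissue factor, 0.79 (adjusted p 0.00113), and Myof, myoferlin, 0.52 (adjusted p 0.00121), with Fjx1 at 0.55 (adjusted p 0.0176) and Ajuba at 0.43 (adjusted p 0.043), and none of them passed with the covariate. In the immediate early list 7 of 16 rose, with Egr2 at 1.24 (adjusted p 0.00199), Junb at 0.76 (adjusted p 0.00526), Jund at 0.57 (adjusted p 0.0107) and Klf6 at 0.52 (adjusted p 0.0328), all 4 transcription factors. That number fell to 3 with TMM factors or in edgeR, without RC/- D53 replicate 23, 24, 25 or 27 or without RC/+ D53 replicate 10 or 12, to 2 without replicate 11, and to 0 with the covariate. Of the exon bases of Jund 52.6% are shared with another gene, and its replicate 26 overlapped RC/+ D53. Single members rose in the fibrosis list of 15 (Timp1, an inhibitor of metalloproteinases, 1.36, adjusted p 0.0408), the smooth muscle list of 12 (Tpm2, a tropomyosin, 0.61, adjusted p 0.0368), the lymphocyte list of 12 (Cd79b, part of the B cell receptor, 0.99, adjusted p 0.0167) and the interferon and antigen presentation list of 18 (Oas1a, 1.19, adjusted p 0.0125). Of these 4 calls Timp1 alone held with the covariate, 2.21 (adjusted p 0.0451), and Tpm2, Cd79b and Oas1a gave 0.51 (adjusted p 0.332), 0.98 (adjusted p 0.195) and 1.24 (adjusted p 0.156). In the 8 fits without 1 library Timp1 and Tpm2 passed in 2, Cd79b in 5 and Oas1a in 7, with the highest adjusted p of Timp1 at 0.256 without replicate 11, of Tpm2 at 0.174 without replicate 10, of Cd79b at 0.197 without replicate 11 and of Oas1a at 0.131 without replicate 10. Timp1 did not pass in edgeR (adjusted p 0.0621). The collagens Col1a1 and Col3a1 were at 0.11 and 0.10 (adjusted p 0.924 and 0.934), and the median of the fibrosis list was 0.07, or 0.70 with the covariate. In the neutrophil list of 9, Ngp rose, 2.17 (adjusted p 0.0478), and Mmp9 fell. Ngp gave -0.06 (adjusted p 0.979) with the covariate, passed in 1 of the 8 fits without 1 library and did not pass in edgeR (adjusted p 0.105).

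**Figure D4:**
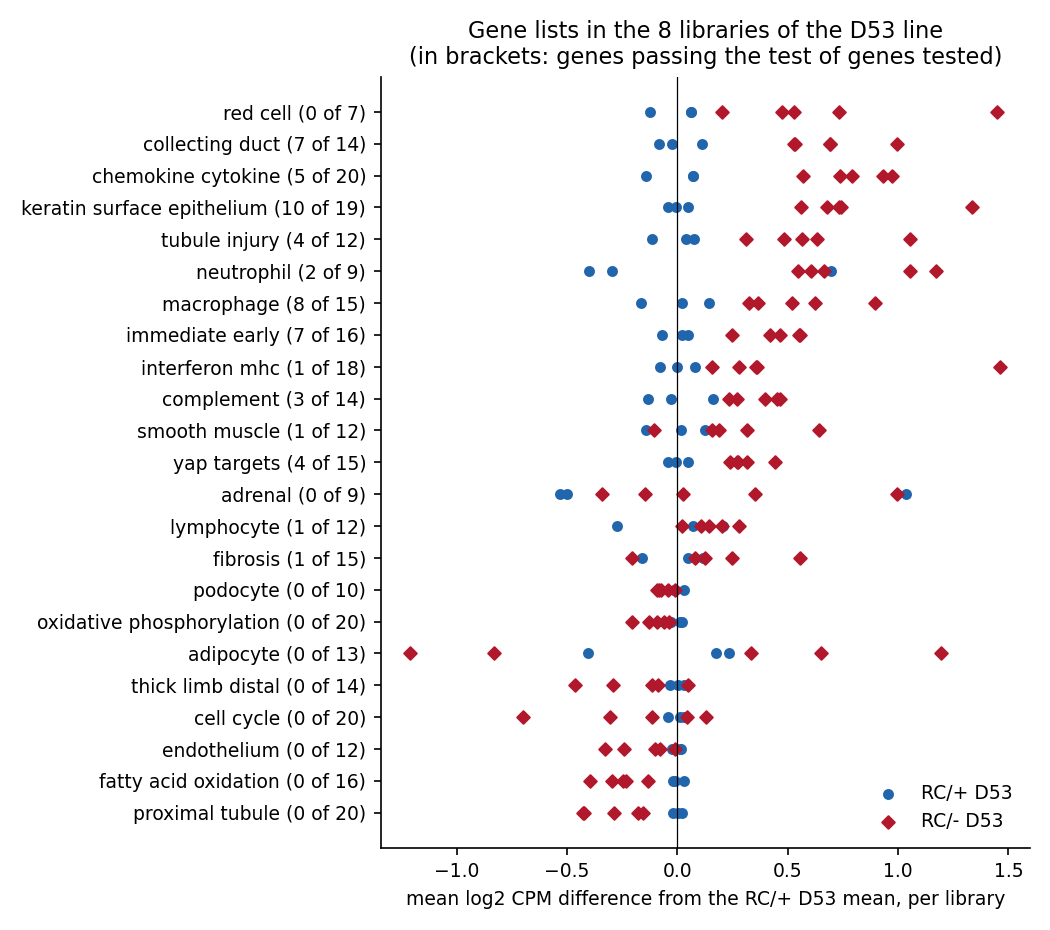
Mean difference in log2 CPM from the RC/+ D53 mean (x axis) of 23 gene lists (y axis, ordered by median fold change, with genes passing the test of genes tested in brackets) in each of the 8 D53 libraries, blue circles for RC/+ D53 and red diamonds for RC/- D53. All 5 cystic libraries lie above the 3 others for collecting duct, chemokine, keratin, tubule injury and macrophage genes, and replicate 24 stands alone at 1.46 in the interferon list.

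No gene passed in the lists for cell cycle (20), proximal tubule (20), thick ascending limb and distal tubule (14), oxidative phosphorylation (20), fatty acid oxidation (16), endothelium (12), podocytes (10), adipocytes (13), adrenal gland (9), red cells (7) or myogenic identity (3) in limma-trend. Of the 20 proximal tubule genes 8 had all cystic libraries below all noncystic ones. Over all genes tested 11.6% were separated in either direction. The median difference of the list was -0.33. Slc5a2, the glucose transporter SGLT2, was at 428, 402 and 407 CPM in the RC/+ D53 libraries and 219.7, 208, 219.6, 332 and 229.6 CPM in the RC/- D53 libraries, a difference of -0.79 ± 0.27 (adjusted p 0.135), and 20.6% of its exon bases are shared with another gene. The cystic values lay below the noncystic ones, with replicate 26 nearest to them. Averaged over the list, the cystic libraries lay between -0.43 and -0.15 relative to RC/+ D53. Calb1, a calcium buffer of the distal tubule, went from 535 ± 28.01 to 373 ± 20.2 CPM (SD, n = 3 and 5), a difference of -0.52 ± 0.18 (adjusted p 0.152). For fatty acid oxidation all 16 genes were below 0 (median -0.23), among them Cpt2, a mitochondrial carnitine transferase, at -0.34 (adjusted p 0.0664). With the covariate 5 of these 16 passed and were lower. In oxidative phosphorylation Ndufs1, a complex I subunit, was at -0.29 (adjusted p 0.0843), the median was -0.09, and 2 genes passed with the covariate. DESeq2 called 2 oxidative phosphorylation, 3 fatty acid oxidation and 1 red cell gene, and edgeR called none in these lists. With only the D53 libraries in the model, 3 proximal tubule and 2 distal genes passed. Among them were Slc5a2 and Calb1 (limma-trend, adjusted p 0.00194 and 7.55e-04). So did 1 gene each for oxidative phosphorylation (Ndufs1, adjusted p 0.0451), fatty acid oxidation, red cells, adipocytes and endothelium. Cell cycle genes had a median of -0.20, which turned to 0.80 with the covariate, and replicate 24 was lowest at -0.70 on average. Endothelial genes had a median of -0.22, and podocyte genes one of -0.06, which turned to 0.23 with the covariate.

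Red cell transcripts did not overlap between the groups. Summed haemoglobin and other red cell genes were at 361 to 425 CPM in RC/+ D53 and 469.7 to 1336 CPM in RC/- D53, with the highest value in replicate 23, and the means were 393 ± 31.7 and 755.5 ± 339 CPM (SD, n = 3 and 5; exact permutation test, two-sided, p = 0.0357, adjusted p = 0.0625). Hba-a1, an alpha-globin gene, had a difference of 1.09 ± 0.31 (adjusted p 0.057). Adipocyte genes were at 519 to 663 CPM and 340.1 to 1088 CPM in the same groups, and adrenal genes at 5.13 to 11.6 CPM and 5.87 to 10.7 CPM. The mitochondrial share of counts was 5.76% to 6.19% in RC/+ D53 and 4.88% to 5.71% in RC/- D53 (exact permutation test, two-sided, p = 0.0357, adjusted p = 0.0625). The part of red cell content and mitochondrial share in the gene differences was not tested.

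The 33 genes that were lower were spread over several functions. Mmp9 (ENSMUSG00000017737, chromosome 2, 164940780 to 164955850), the gelatinase of neutrophils and macrophages, was at 6.94, 5.92 and 5.69 CPM in the RC/+ D53 libraries and 2.92, 2.12, 2.05, 1.97 and 1.77 CPM in the RC/- D53 libraries, a difference of -1.50 ± 0.38 (adjusted p 0.0277). Uroc1 (ENSMUSG00000034456, chromosome 6, 90333284 to 90364551), urocanate hydratase of histidine breakdown, was at 13.1, 14.01 and 12.2 CPM in the RC/+ D53 libraries and 6.06, 6.92, 4.47, 6.83 and 5.12 CPM in the RC/- D53 libraries, a difference of -1.16 ± 0.27 (adjusted p 0.0176). Both were lower in all 5 cystic libraries, which was a condition for naming the decreases. Dpep1, a dipeptidase of the proximal tubule brush border, was at 121, 139.6 and 151 CPM in RC/+ D53 and 69.1, 78.2, 71.8, 113 and 90.3 CPM in RC/- D53, a difference of -0.72 ± 0.15 (adjusted p 0.00684). Slc16a13, a monocarboxylate transporter, went from 92.7 ± 1.57 to 66.8 ± 11.5 CPM, and Galnt14, a glycosyltransferase, from 59.4 ± 6.56 to 41.6 ± 6.11 CPM, with differences of -0.49 ± 0.12 (adjusted p 0.0282) and -0.52 ± 0.12 (adjusted p 0.0134). The replicate 26 value of both was the nearest to RC/+ D53. Pklr, pyruvate kinase of liver and red cells (-0.58, adjusted p 0.0338), Pla2g5, a secreted phospholipase (-0.71, adjusted p 0.0455), Ccrl2, a chemerin-binding receptor (-0.65, adjusted p 0.0153), Spns3 (-0.78, adjusted p 0.0143) and the noncoding gene 1110020A21Rik (-0.74, adjusted p 0.0321) were also lower. Ccrl2, Spns3 and 1110020A21Rik averaged 8.42, 4.32 and 2.08 CPM in RC/+ D53. They averaged 5.99, 3.17 and 1.42 CPM in RC/+ and 6.58, 3.40 and 1.44 CPM in RC/+ D18. Slc16a13 was at 66.1 CPM in RC/+ D18. Of the named decreases all but Uroc1 and Pklr had their highest noncystic mean in RC/+ D53, by little for Galnt14. How far the calls rest on high RC/+ D53 levels was not tested. Of the exon bases of Pklr 21.97% are shared with another gene. None of the 33 passed in all 8 fits without 1 library, and 6 of them passed with the covariate. For the 10 named here the covariate kept the direction and none passed, with Mmp9 at -1.71 (adjusted p 0.163) and Dpep1 at -0.80 (adjusted p 0.104).

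Some genes outside the muscle list moved with the muscle set. Drp2 (ENSMUSG00000000223, chromosome X, 134404551 to 134456573), a dystrophin-related protein of Schwann cells, was at 0.375, 0.395 and 0.491 CPM in RC/+ D53 and 3.21, 3.58, 3.67, 2.69 and 2.85 CPM in RC/- D53, a difference of 2.71 ± 0.61 (adjusted p 0.0119) and -0.56 (adjusted p 0.578) with the covariate. Mylk4, a myosin light chain kinase, rose from 0.247 ± 0.174 to 2.46 ± 0.267 CPM and gave 3.14 ± 0.59 (adjusted p 0.00238) and then 0.42 (adjusted p 0.79). Sfrp5, a secreted inhibitor of Wnt signalling, was at 0.638, 0.434 and 0.540 CPM in RC/+ D53 and 2.59, 2.60, 2.60, 2.24 and 2.56 CPM in RC/- D53, a difference of 2.09 ± 0.42 (adjusted p 0.00482) and 0.35 (adjusted p 0.778). For these 3 genes all 5 cystic libraries were above the 3 others, which was a condition of the rule that named them. The call was lost with the covariate for each. Among the muscle genes themselves, Ttn, titin, gave 4.19 ± 0.54 (adjusted p 5.08e-05), Actn3, fast alpha-actinin, 2.25 ± 0.34 (adjusted p 2.90e-04), and Atp2a1, the sarcoplasmic calcium pump, 4.97 ± 0.92 (adjusted p 0.00206), and the covariate left 1.18 (adjusted p 0.101), 0.65 (adjusted p 0.381) and -0.43 (adjusted p 0.623). Of the exon bases of Atp2a1 21.9% are shared with another gene. Several list members already present in RC/+ D53 did not pass, namely Pygm, muscle glycogen phosphorylase, at 0.46 (adjusted p 0.0529), Sypl2 at -0.22 (adjusted p 0.678), Cox7a1 at 0.17 (adjusted p 0.896), Fbp2 at -0.21 (adjusted p 0.606) and Pgam2 at -0.03 (adjusted p 0.954).

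The genes the study is concerned with did not pass the test in the D53 line with all 24 libraries in the model. Pkd1 (ENSMUSG00000032855, chromosome 17, 24549834 to 24596508) was at 62.3, 54.02 and 52.8 CPM in the RC/+ D53 libraries and 60.2, 54.7, 63.5, 58.95 and 38.4 CPM in the RC/- D53 libraries, a difference of -0.05 ± 0.12 (adjusted p 0.925). The groups overlapped, replicate 27 was the lowest, and the difference was 0.10 with the covariate. Whole-gene counts do not tell the edited RC allele from the other one. Pkd2, which encodes polycystin-2, was at 238, 236 and 229 CPM in RC/+ D53 and 245, 265, 259, 272 and 217 CPM in RC/- D53, a difference of 0.10 ± 0.07 (adjusted p 0.624). Myc, a transcription factor of growth, was at 13.5, 10.9 and 11.97 CPM in RC/+ D53 and 16.5, 15.6, 17.01, 16.4 and 22.2 CPM in RC/- D53, a difference of 0.53 ± 0.16 (adjusted p 0.0763). Its groups did not overlap, with 22.2 CPM in replicate 27. Yap1, the coactivator of the Hippo pathway, was at 121, 117 and 115 CPM in RC/+ D53 and 133, 132, 136, 132 and 130.0 CPM in RC/- D53, a difference of 0.18 ± 0.05 (adjusted p 0.0883). Mrc1, the macrophage mannose receptor, was at 11.97, 13.4 and 15.8 CPM in RC/+ D53 and 16.1, 20.5, 23.1, 18.5 and 19.9 CPM in RC/- D53, a difference of 0.51 ± 0.19 (adjusted p 0.184). Creb1, a cAMP-responsive transcription factor, and Mettl3, the catalytic subunit of an RNA methyltransferase, had differences of 0.12 ± 0.08 (adjusted p 0.537) and -0.01 ± 0.10 (adjusted p 0.984), and 18.4% of the exon bases of Mettl3 are shared with another gene. With only the D53 libraries in the model Myc and Mrc1 passed (adjusted p 0.0333 and 0.0411), and with genes kept from a mean log2 CPM of 0 Yap1 did (adjusted p 0.0487).

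Whether the cystic difference in the D53 line equalled that in the unedited line was tested by an interaction term, over libraries that the pair of comparisons does not share. It differed for 2545 genes (11.3% of those tested), 41.9% of them with a higher value in the D53 line, or 60.2% of 2443 with TMM factors. Of the 518 genes higher in RC/- D53 outside the muscle list, 264 had a smaller difference than in the unedited line and 14 had an interaction in the direction of their D53 difference. For the 33 lower genes these numbers were 10 and 3. With TMM factors these numbers were 209 and 15 for the higher genes and 11 and 2 for the lower, and with the covariate in the interaction test 83 and 0, then 2 and 1. The median difference of the 518 was 0.69 in the D53 line, 1.30 in the unedited line and 0.35 in the D18 line. These genes were selected by their D53 difference, which raises the D53 median, so 0.69 and 0.35 do not compare the edited lines. Over all genes the medians were 0.04, 0.14 and 0.04 in the same order. In the unedited line 480 of the 518 and 26 of the 33 passed in the same direction, which is 91.8% of the 551 and 5.97% of the 8481 genes that passed there outside the muscle list (37.6% of all genes passed in the unedited line). In the D18 line, where 60 genes passed (0.266%), 44 of the 551 did, 7.99% of the D53 genes and 78.6% of the 56 called there outside the muscle list.

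For tubule injury genes 8 of 12 differed between the lines, where 11.3% of all genes tested did. Lcn2 had differences of 1.81 in the D53 line, 5.65 in the unedited line and 1.53 in the D18 line, an interaction of -3.84 (adjusted p 1.72e-04). For Clu the values were 0.78, 3.13 and 0.46, an interaction of -2.35 (adjusted p 1.72e-05), and for Trpv6 1.83, 4.15 and 0.86, an interaction of -2.31 (adjusted p 1.65e-05). S100a14 gave 2.67, 4.46 and 1.30 (-1.79, adjusted p 0.00198). Of the 14 collecting duct genes 7 differed between the lines: Gata3 gave 1.30, 2.02 and 0.77 (-0.72, adjusted p 0.00593), and Scnn1g, which did not pass, 1.11, 1.58 and 0.52 (-0.47, adjusted p 0.0705). The term passed for 14 of 19 surface epithelium, 10 of 15 macrophage and 16 of 20 proximal tubule genes. As medians of whole lists, collecting duct genes were at 0.79 in the D53 line and 1.01 in the unedited line, surface epithelium genes at 0.74 and 1.85, tubule injury genes at 0.64 and 1.96, macrophage genes at 0.55 and 1.57 and proximal tubule genes at -0.33 and -1.39. Skeletal muscle genes went the other way, at 1.44 and 0.08. For the D53 line against the D18 line limma-trend found 0 genes with a changed cystic difference, with 884 at an unadjusted p below 0.05 and a lowest adjusted p of 0.449. edgeR and DESeq2 also found 0 (873 and 831 at an unadjusted p below 0.05). That comparison contains the RC/- D18 replicates with and without muscle transcripts.

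**Figure D5:**
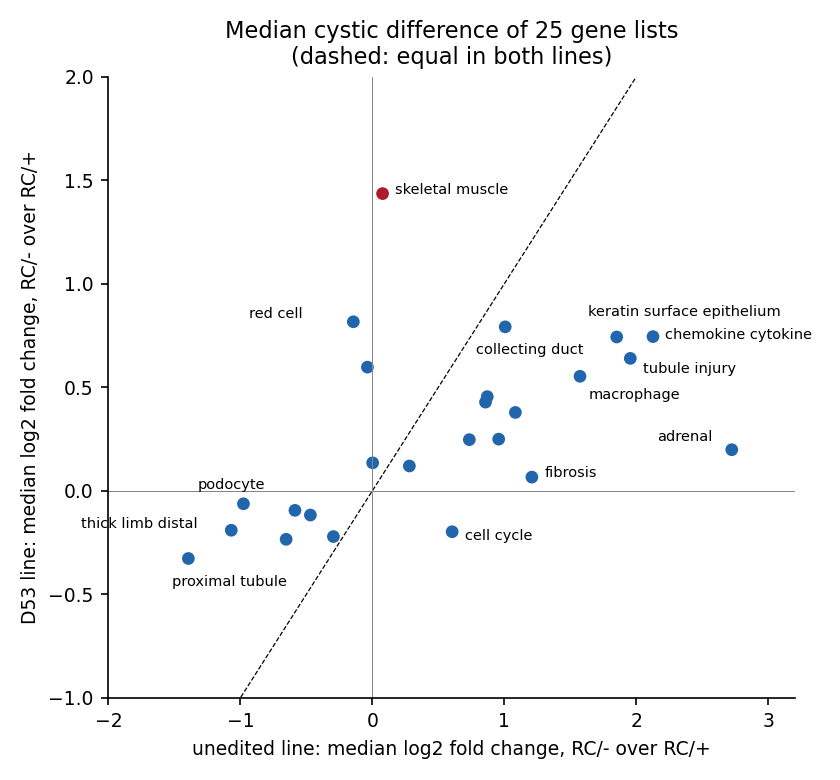
Median difference of RC/- over RC/+ for 25 gene lists in the unedited line (x axis) and in the D53 line (y axis), with skeletal muscle in red and a dashed line where both are equal. Collecting duct lies at 1.01 and 0.79, tubule injury at 1.96 and 0.64, surface epithelium at 1.85 and 0.74, and skeletal muscle above the line at 0.08 and 1.44.

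The genes outside the muscle list whose interaction went in the direction of their D53 difference numbered 17, and for none of them did the D53 difference pass with the covariate. These included Mylk4 (2.75, adjusted p 0.0336), and, named after their values were seen, Slc4a10, a sodium bicarbonate transporter, which went from 1.11 to 3.43 CPM in the D53 line (1.57, adjusted p 0.00761) and was at -0.84 in the unedited line (adjusted p 0.0513), and Vegfb, a vascular growth factor, at 0.30 (adjusted p 0.0327) and -0.12 (adjusted p 0.236). Vsig10, likewise named afterwards, differed in opposite directions, at -0.35 in the D53 line (adjusted p 0.0368) and 0.41 in the unedited line (adjusted p 9.46e-04), with an interaction of -0.76 (adjusted p 6.69e-04).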

How the data were processed

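Per the submitters' processing notes and the study's methods, the authors trimmed paired reads with Trim Galore 0.6.3, aligned them to GRCm38 with STAR 2.5.3a and counted reads per Ensembl 94 gene with STAR. The deposited table holds raw counts, whole numbers per gene without normalization; the strand setting used in counting is not given in the sources used here. Counts were divided by each library's total and log2 CPM (prior count 2) were tested with limma-trend (limma 3.58.1, edgeR 4.0.16, R 4.3.3) on genes whose log2 CPM averaged -3 or more over the 24 libraries, in 1 model of 6 group means, two-sided, with Benjamini-Hochberg adjustment over 22570 genes and a threshold of 0.05. Errors in the text are SD of CPM over animals (n = 3 RC/+ D53 and n = 5 RC/- D53) and SE of log2 fold changes. Unlike a fold of mean CPM, fitted log2 fold changes of low genes shrink toward 0. edgeR's quasi-likelihood test and DESeq2 1.42.0 were alternatives, with those in the closing section. Exact permutation tests used scipy 1.17.1. The fit was tested on simulated data. Coordinates are those of GENCODE M21 on GRCm38, which matched 54495 of 54532 identifiers.

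Libraries within a group differed by more than sampling noise (chi-square per degree of freedom 8.63 to 44.3 over the 13 pairs of the D53 line). The libraries, gene lists and tests were chosen with earlier results of these data known. Genes were named by rule: the study's genes, the 14 largest increases and 10 largest decreases outside the muscle list (adjusted p below 0.05, separated groups, at least 1 CPM), 8 increases that also passed with the covariate, up to 4 genes a list by p, and the 8 highest muscle genes. Some genes are not reported here. Sex was read from Xist and a Y-linked gene.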

Additional observations from a re-analysis of the deposited data

Results flagged for a closer look

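In the RC/- D53 group 5 values stood far from the other 4 libraries, measured as the gap to the nearest library over the whole range of log2 values. Sfrp5 was low in replicate 26 (2.24 CPM against 2.56 to 2.61 CPM, gap 0.888), Myc was high in replicate 27 (22.2 CPM against 15.6 to 17.01 CPM, gap 0.754), and Slc5a2 was high in replicate 26 (332 CPM against 208 to 229.6 CPM, gap 0.787). Interferon and antigen presentation genes averaged 1.46 above RC/+ D53 in replicate 24 and 0.16 to 0.36 in the others (gap 0.844), and surface epithelium genes averaged 1.33 in replicate 27 and 0.56 to 0.74 in the others (gap 0.764). Chance gives such a gap in about 1 of 20 groups, and 82 genes, 26 lists and 7 library values were examined.

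For 44 named genes the cystic difference in the D53 line was unequal to that in the unedited line in the limma interaction test, and the values in brackets are the D53 difference minus the unedited one, on the log2 scale. Collecting duct and transport genes were Gata3 (-0.724), Hsd11b2 (-0.754), Fxyd4 (-0.745) and Trpv6 (-2.31), all below 0. Surface epithelium and injury genes were S100a14 (-1.79), Lgals3 (-1.25), Sprr2g (-2.78), Krt18 (-1.34), Krt8 (-1.02), Lcn2 (-3.84) and Clu (-2.35). Macrophage, cytokine and complement genes were Lyz2 (-1.35), C1qb (-0.911), C1qa (-0.896), Mrc1 (-1.54), Csf1 (-1.28), Tgfb2 (-1.06), Lif (-1.91), C5ar1 (-1.04) and Cfi (-0.874). Immediate early genes, Yap targets and others were Egr2 (-1.75), Junb (-0.678), Klf6 (-0.828), Myc (-1.05), F3 (-0.854), Myof (-0.939), Fjx1 (-1.03), Ajuba (-0.859), Timp1 (-2.6), Tpm2 (-0.913) and Fam167a (-0.882). Genes outside the muscle list with a negative cystic difference in the unedited line and a smaller one in the D53 line were Galnt14 (0.775), Ndufs1 (0.597) and Calb1 (1.62). The noncoding gene 1110020A21Rik was at -0.864. Muscle list genes and genes of the muscle set had values above 0, which were Ttn (3.49), Actn3 (2.33), Acta1 (2.92), Atp2a1 (5.03), Mylk4 (2.75), Pygm (1.32), Sypl2 (1.04) and Pgam2 (0.692). For Pygm, Sypl2 and Pgam2 the unedited difference was -0.86, -1.25 and -0.72, and the D53 difference was 0.46, -0.22 and -0.03. Myh4 was at 9.3, a fitted value that depends on the prior count because its RC/+ D53 level rests on 1 count.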

How the results depend on the processing

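The D53 libraries held 20.4 to 30.8 M counts, and the effect of depth on the calls was not tested. The 587 genes of the D53 line became 287 with libraries 20 to 27 as a covariate (78.0% higher), 300 with summed muscle CPM as a covariate (83% higher) and 193 with a log2 fold change of at least 1, against 94.4% higher without them. Leaving out 1 library gave 312 to 577. DESeq2 called 728 genes, 79.5% of them higher. The 2545 genes that differed from the unedited line became 403, 167 and 889 under the same 3 settings, and 1643 to 2933 on leaving out 1 library, with the lowest value without RC/+ replicate 5. Against the D18 line the number was 0 under each alternative run. The cause of these shifts was not tested.

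With libraries 20 to 27 as a covariate the direction reversed for 15 of the 36 muscle genes that passed and 9 of the 551 others. Among the named genes Myh4 was at -0.22, Atp2a1 at -0.43, Drp2 at -0.56, Ngp at -0.0626, Cox7a1 at -0.54, Pkd1 at 0.10, Pgam2 at 0.11 and Mettl3 at 0.24. With summed muscle CPM Drp2 was at -0.19, Cox7a1 at -0.75, Pkd1 at 0.0884, Pgam2 at 0.14 and Mettl3 at 0.21, and with sex as a covariate Mettl3 was at 0.0051. On leaving out 1 library Cox7a1 ranged from -0.0250 to 0.35, Pkd1 from -0.11 to 0.0755, Pgam2 from -0.0906 to 0.0061 and Mettl3 from -0.0565 to 0.0581. Of 65 named genes that passed, 56 also passed in edgeR, 61 with TMM factors, 20 with the covariate for libraries 20 to 27 and 40 to 61 on leaving out 1 library. No paired analysis was made because the sample labels used here give no litter or pairing of the mice.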

Other observations

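Myelin genes of Schwann cells were examined after Drp2 had been seen among the increases, so they are given as values with no test. Mbp, myelin basic protein, was at 39.9, 33.5 and 39.99 CPM in RC/+ D53 and 66.02, 61.6, 63.1, 55.9 and 62.6 CPM in RC/- D53. Prx, periaxin, was at 7.96, 8.17 and 7.998 CPM and 12.5, 13.2, 14.7, 12.8 and 12.3 CPM in the same groups. Both were higher in all 5 cystic libraries. Gjb1, connexin 32, overlapped between the groups, at 36.9 to 37.7 CPM and 33.96 to 37.6 CPM, as did Mag, myelin-associated glycoprotein, at 6.27 to 7.95 CPM and 7.46 to 10.9 CPM. In RC/- D18, Drp2 was at 0.350 and 0.240 CPM in replicates 18 and 19 and at 3.57, 3.399 and 3.52 CPM in replicates 20 to 22. Mbp was at 39.73 and 36.42 CPM and at 70, 61.94 and 68.97 CPM in the same replicates. The unedited line lies outside libraries 20 to 27. There Mbp was at 38.06 to 44.96 CPM in RC/+ and 72.43 to 86.75 CPM in RC/-. Prx was at 6.502 to 8.59 and 9.755 to 11.68 CPM, and Drp2 at 0.4492 to 0.575 and 0.8024 to 1.967 CPM. Whether these genes follow the muscle set or the cystic genotype was not tested.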
